A study of Mus musculus with 6 samples.

Results

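The integrins and cell adhesion receptors described here are 36 genes of a mouse RNA-seq series, chosen by name as 18 integrin alpha chains, 8 integrin beta chains, 3 immunoglobulin-type adhesion molecules, 3 selectin-system genes and 4 cadherins. All 36 were found among the 33276 genes of the deposited count table, and all 36 passed the filter on low counts. The cells were fibroadipogenic progenitors (FAPs), mesenchymal cells of muscle that can form fibroblasts and adipocytes. Circulating FAPs came from peripheral blood (3 libraries) and muscle FAPs from muscle (3 libraries), and both groups came from mice with middle cerebral artery occlusion (MCAO), a stroke model in which a brain artery is blocked. The labels enter MCAO in the field for strain, and the genetic background, age, sex, muscle, time after occlusion and the way FAPs were purified are not given in the sources used here. No library of mice without occlusion was analysed here. The comparison asks how FAPs in blood differ from those resident in muscle.

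Integrins are receptors made of 1 alpha and 1 beta chain that tie the cytoskeleton to extracellular matrix or to counter-receptors on other cells. The alpha chain largely sets the ligand: some pairs bind collagen, others laminin, others the arginine-glycine-aspartate (RGD) sequence of fibronectin and vitronectin, and a leukocyte group binds immunoglobulin-type molecules such as ICAM-1. Selectins catch rolling leukocytes on endothelium, PECAM-1 and VE-cadherin hold endothelial cells together, and cadherins join cells through calcium-dependent contacts. Cadherin-11 is the typical cadherin of fibroblasts and other mesenchymal cells.

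Circulating libraries held 5522193 to 13813329 reads and muscle libraries 17532558 to 23424039, and the 36 genes together took 0.111% to 0.134% in circulating and 0.119% to 0.136% in muscle libraries of the reads outside 18S ribosomal RNA. Levels are given as counts per 1000000 reads of the scaled library size (CPM). The 12 FAP markers summed to 13500 to 18800 CPM in circulating and 31100 to 38200 CPM in muscle libraries, so the labelled cell type was present by its markers in both. Genes of vomeronasal, taste and trace amine receptors, taken as silent in these cells without a test of it, served as a measure of unspecific reads. Their median was 0.474, 0.529 and 0.424 CPM per kilobase of exon in the circulating libraries, in replicate order here and below, against 0.265, 0.284 and 0.215 in the muscle libraries, so this background was higher in every circulating library. Among the 260 such genes that were tested, the median log2 fold change was 0.93, and 36.5% lay higher in all circulating libraries than in any muscle library.

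None of the 36 genes passed the threshold of an adjusted p under 0.05 in edgeR, where 0.109% of 20248 genes tested passed in either direction, 0.104% lower and 0.00494% higher in circulating FAPs. None passed with scaling on abundant genes either, where 0.0198% of all genes were lower and 0.0148% higher. At an unadjusted p under 0.05, 6 of the 36 were lower and 2 higher in circulating FAPs, which is 16.7% and 5.56% beside 9.64% and 9.71% of all genes. With DESeq2 on the same genes, 4 were lower (Cdh11, Itgav, Itga10 and Itga8) and 1 higher (Itgb2), where 7.08% of all genes were lower and 1.34% higher. With DESeq2 run on all genes with a read, Itga9 and Itgb3 were lower as well, making 6 lower and 1 higher, where 10.3% of all genes were lower and 1.16% higher. Over all alternatives the adjusted p ran from 4.84e-06 to 0.264 for Cdh11, from 0.0069 to 0.289 for Itgav, from 0.00588 to 0.313 for Itga10, from 0.0261 to 0.38 for Itga8, from 0.00348 to 0.267 for Itgb2, from 0.0426 to 0.422 for Itga9 and from 0.0385 to 0.497 for Itgb3. The 2 groups of libraries did not overlap for 10 of the 36, 5 in each direction, or 27.8% beside 27.7% of all genes, so the share of separated genes was close to the background. The median log2 fold change, circulating minus muscle, was 0.07 for the 36 genes and 0.15 for all genes. It differed with abundance: 10 of 11 members with a mean of at least 20 CPM over the 6 libraries were negative, and 12 of 13 members under 5 CPM were positive. Over all genes the median was -0.61 between 20 and 50 CPM, -0.68 from 50 CPM upwards, 0.56 between 2 and 5 CPM and 0.77 under 2 CPM. Negative were 1998 of 2719 genes between 20 and 50 CPM and 1711 of 2017 from 50 CPM upwards. Positive were 2678 of 3942 genes between 2 and 5 CPM and 5351 of 6540 under 2 CPM.

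**Figure D1:**
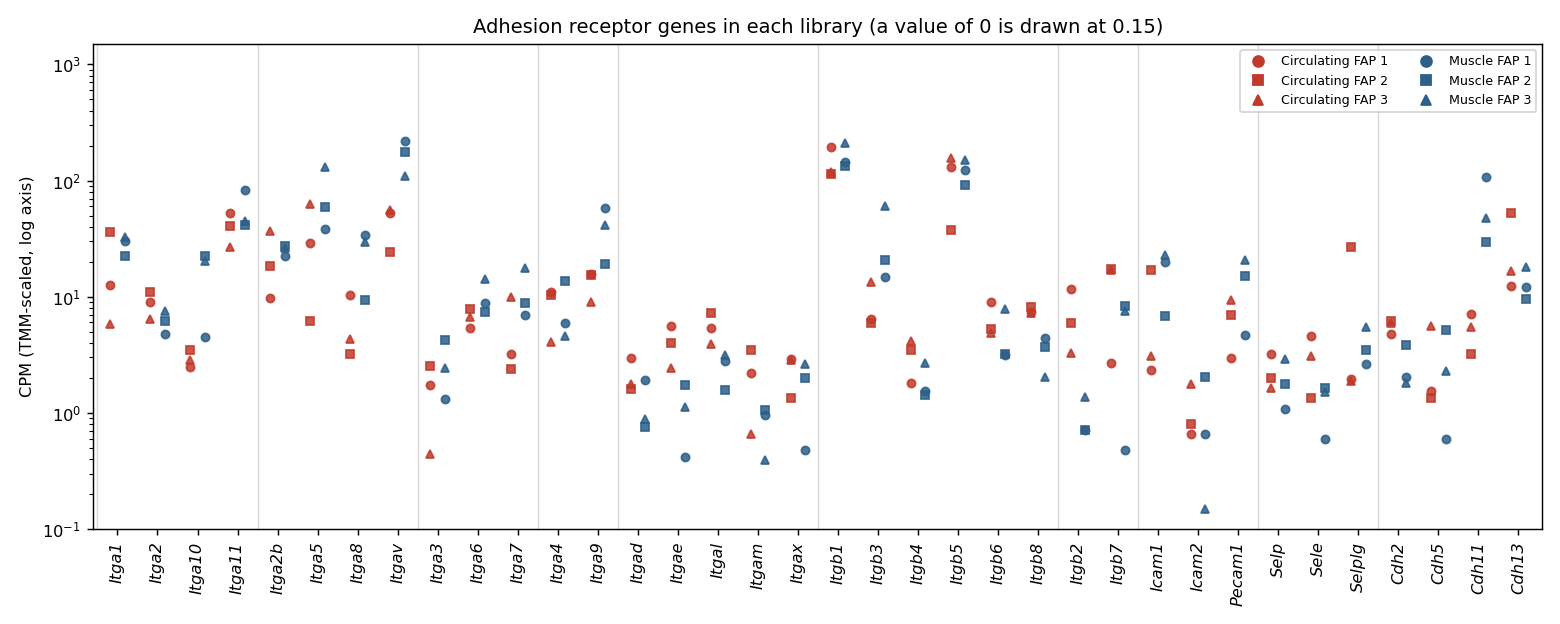
Level of each of the 36 genes in CPM on a log axis, 1 point per library, circulating libraries in red left of muscle libraries in blue, with genes ordered by role and grey lines between roles. Itgb1 and Itgb5 were high in both groups, and the 3 circulating values of Cdh11 (3.19 to 7.08 CPM) lie below the 3 muscle values (29.7 to 107.8 CPM).

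**Figure D2:**
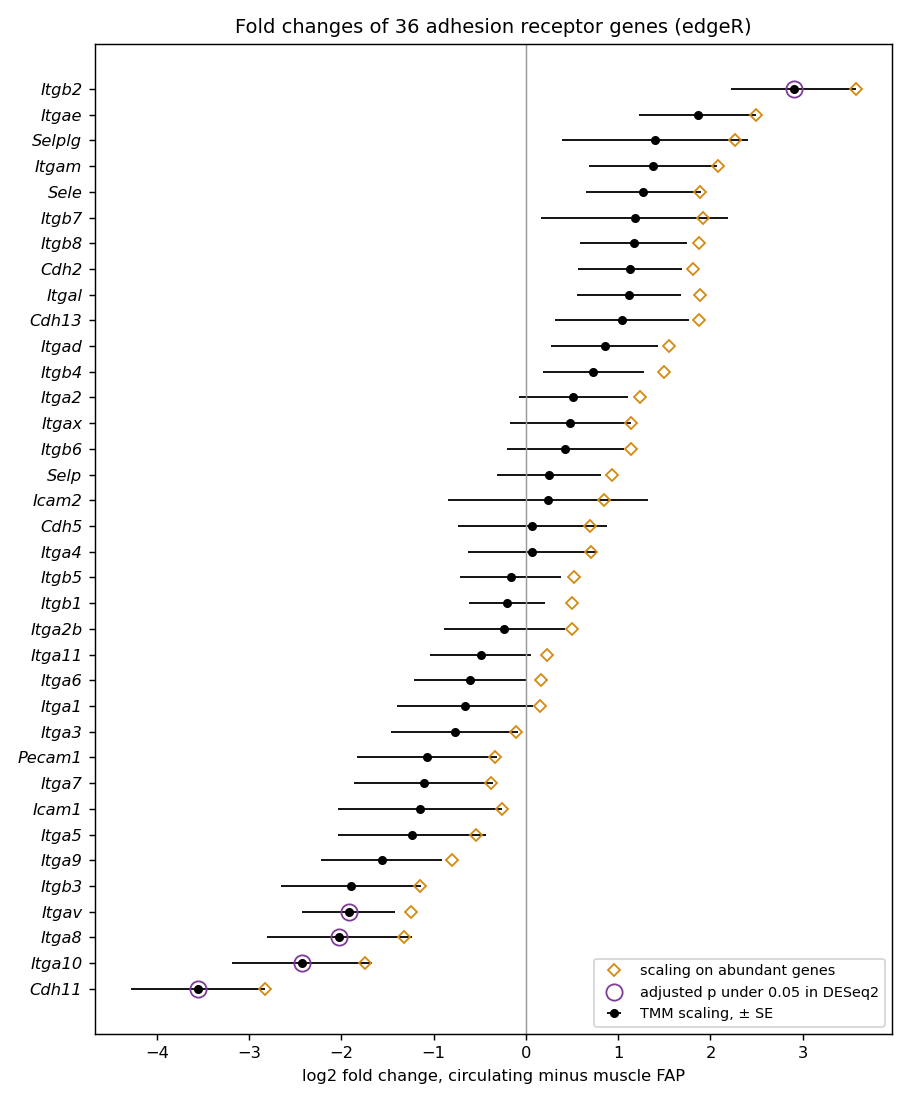
Log2 fold change of each gene, circulating minus muscle FAP, from edgeR with trimmed mean of M values scaling (black, bars ± SE) and with scaling on abundant genes (open diamonds). Purple rings mark the 5 genes that passed in DESeq2; Cdh11 (-3.55) and Itgb2 (2.90) lie at the ends, and none passed in edgeR.

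The most abundant beta chains overlapped between the groups. Itgb1, the partner of the collagen, laminin and fibronectin receptors, was at 194, 114 and 119 CPM in circulating libraries, against 146, 133 and 213 CPM in muscle libraries. The log2 fold change was -0.20 ± 0.41 (SE; edgeR adjusted p = 0.791). Itgb5, which pairs with the alpha-v chain to bind vitronectin, was at 131, 37.3 and 156 CPM in circulating libraries and 123, 90.9 and 150.0 CPM in muscle libraries (-0.16 ± 0.55, edgeR adjusted p = 0.873). Circulating replicate 2 was low and the other 2 circulating libraries were within the muscle range or above it. Per kilobase of exon Itgb1 and Itgb5 were the most abundant of the 36 genes, at 34.8 ± 10.9 and 30.4 ± 17.6 CPM in circulating and 40.1 ± 10.5 and 34.1 ± 8.31 CPM in muscle FAPs (SD, n = 3). Scaling on abundant genes gave both a positive sign, 0.49 for Itgb1 and 0.52 for Itgb5.

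Itgb3, the beta chain of platelets and of alpha-v receptors on growing cells, stood apart from Itgb1 and Itgb5. It was at 6.42, 5.99 and 13.4 CPM in circulating libraries, against 14.9, 20.8 and 60.5 CPM in muscle libraries. The groups did not overlap, with muscle replicate 3 far above the others, and the log2 fold change was -1.90 ± 0.76 (edgeR adjusted p = 0.223), or -1.10 without muscle replicate 3. In bulk libraries fewer cells that carry a transcript and less transcript per cell cannot be told apart, here and for every gene below. Itgb8, which binds latent TGF-beta with alpha-v, was at 7.44, 8.12 and 7.25 CPM in circulating libraries and at 4.42, 3.66 and 2.05 CPM in muscle libraries (1.17 ± 0.58, edgeR adjusted p = 0.292). The groups did not overlap in CPM, but over the background of silent genes the same values were 1.39 to 1.54 in circulating and 0.862 to 1.51 in muscle libraries. The epithelial beta chains Itgb4 and Itgb6 lay between 1.82 and 8.98 CPM in circulating and between 1.42 and 7.87 CPM in muscle libraries, and each overlapped. The 7 epithelial markers summed to 7.44 to 14.3 CPM in circulating and 2.98 to 5.85 CPM in muscle libraries.

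Among the RGD-binding alpha chains, Itgav was the one whose libraries separated. Itgav, the vitronectin receptor chain that also activates latent TGF-beta, was at 52.8, 24.5 and 56.1 CPM in circulating libraries, against 220.4, 176 and 109 CPM in muscle libraries. Each circulating library lay below each muscle library. The log2 fold change of -1.92 ± 0.50 missed the edgeR threshold (adjusted p = 0.147) and passed that of DESeq2 (-2.02, adjusted p = 0.0169), and it was -1.25 with scaling on abundant genes (edgeR adjusted p = 0.125). It stayed between -2.24 and -1.71 when each library was left out in turn.

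Itga8, which pairs with Itgb1 on myofibroblasts and smooth muscle and binds nephronectin, was at 10.4, 3.19 and 4.28 CPM in circulating libraries, against 33.9, 9.29 and 29.9 CPM in muscle libraries. Circulating replicate 1 and muscle replicate 2 overlapped. The log2 fold change was -2.02 ± 0.78 (edgeR adjusted p = 0.216; DESeq2 adjusted p = 0.0416). The 9 pericyte and smooth muscle markers summed to 55.9 to 75.7 CPM in circulating and 95.5 to 191 CPM in muscle libraries, with none at 0 in all libraries. Of the 8 that were tested, 6 had negative and 2 positive log2 fold changes. The 2 were the smooth muscle genes Myh11 (1.85, edgeR adjusted p = 0.234) and Acta2 (0.85, edgeR adjusted p = 0.598). The part of these markers in the Itga8 value was not tested. Itga5, the fibronectin receptor chain, was at 29.3, 6.12 and 62.3 CPM in circulating and 38.0, 59.6 and 132 CPM in muscle libraries. The spread within each group was wide, and the log2 fold change of -1.23 ± 0.80 had an edgeR adjusted p of 0.399. Itga2b, the platelet chain CD41 that pairs with Itgb3, was at 9.78, 18.4 and 36.6 CPM in circulating and 22.5, 27.5 and 26.2 CPM in muscle libraries (-0.24 ± 0.66, edgeR adjusted p = 0.851). The 11 platelet markers, none of them at 0 in all libraries, summed to 33.4, 18.6 and 12.8 CPM in circulating and 13.9, 14.1 and 16.3 CPM in muscle libraries. Pf4, the most abundant of them, was at 23.3, 2.13 and 0 CPM in circulating and 2.75, 2.94 and 0 CPM in muscle libraries. In circulating libraries the platelet sum was highest in replicate 1, where most of it was Pf4 and where Itga2b was lowest. Of the 7 platelet markers tested, 1 was higher and 1 lower without overlap, where 16.2% of all genes were higher and 11.4% lower. The lower one was Gp9, at 0.438, 0.266 and 0 CPM in circulating and 2.15, 3.66 and 3.33 CPM in muscle libraries. The part of platelet transcripts in the Itga2b value was not tested.

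Itga10 was the collagen-binding chain with the largest fold change. This partner of Itgb1, best known from cartilage, was at 2.48, 3.46 and 2.86 CPM in circulating libraries, against 4.54, 22.3 and 20.5 CPM in muscle libraries. The groups did not overlap, although muscle replicate 1 lay close to the circulating libraries. The log2 fold change was -2.43 ± 0.76 (edgeR adjusted p = 0.178; DESeq2 adjusted p = 0.0111). In the GENCODE M21 annotation 33.5% of the exon bases of Itga10 also lie in exons of Gm42957, so some of its reads may be shared. Itga11, the fibroblast receptor for fibrillar collagen, was the most abundant alpha chain per kilobase in circulating FAPs, at 7.84 ± 2.54 CPM per kilobase against 11 ± 4.46 in muscle FAPs (SD, n = 3). It was at 52.8, 41.0 and 26.8 CPM in circulating and 82.8, 41.8 and 44.7 CPM in muscle libraries, which overlapped (-0.49 ± 0.55, edgeR adjusted p = 0.619). Itga1 was at 12.6, 35.8 and 5.82 CPM in circulating and 30.4, 22.6 and 32.4 CPM in muscle libraries (-0.66 ± 0.74, edgeR adjusted p = 0.618). Circulating replicate 2 was above and the other 2 were below all muscle libraries, and scaling on abundant genes turned the sign (0.155), as it did for Itga11 (0.23). Itga2 lay between 6.48 and 10.9 CPM in circulating and between 4.78 and 7.53 CPM in muscle libraries.

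Promoter sequences are shown for Itgav, Itga8 and Itga10, the 3 integrin chains that were lower in circulating FAPs in DESeq2, each as the 300 bases over its annotated start, from RefSeq on build GRCm38.p6. Capitals mark any match, on either strand, to 5 short motifs: GGGCGG (GC box), GAGGAA (the core of a PU.1 site), TATAAA (core promoter box), GGAATG (TEAD) and TGANTCA (AP-1).
Itgav, chr2:83724147-83724446, plus strand: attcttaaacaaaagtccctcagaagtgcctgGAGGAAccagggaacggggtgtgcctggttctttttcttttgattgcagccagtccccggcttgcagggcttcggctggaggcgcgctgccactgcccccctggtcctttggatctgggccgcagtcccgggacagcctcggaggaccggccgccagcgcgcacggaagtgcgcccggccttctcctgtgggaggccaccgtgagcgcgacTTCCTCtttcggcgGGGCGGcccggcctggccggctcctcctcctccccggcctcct
Itga8, chr2:12301895-12302194, minus strand: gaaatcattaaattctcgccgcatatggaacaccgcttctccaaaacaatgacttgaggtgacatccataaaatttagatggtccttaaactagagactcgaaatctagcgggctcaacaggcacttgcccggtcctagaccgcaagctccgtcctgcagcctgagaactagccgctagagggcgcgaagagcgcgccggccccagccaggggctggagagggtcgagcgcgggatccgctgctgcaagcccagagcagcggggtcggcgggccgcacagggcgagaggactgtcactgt
Itga10, chr3:96645334-96645633, plus strand: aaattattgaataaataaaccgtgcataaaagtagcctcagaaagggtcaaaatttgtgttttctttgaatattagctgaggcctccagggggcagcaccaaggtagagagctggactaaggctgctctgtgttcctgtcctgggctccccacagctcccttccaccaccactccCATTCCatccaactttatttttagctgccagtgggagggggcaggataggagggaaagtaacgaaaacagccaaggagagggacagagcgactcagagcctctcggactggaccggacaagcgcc
The Itgav window held 1 GC box and 2 PU.1 cores, the Itga10 window held 1 TEAD match, and the Itga8 window held none of the 5. These letters were found in 35.7% (GC box), 28.3% (PU.1 core), 14.7% (TEAD), 13.6% (core promoter box) and 7.81% (AP-1) of the 32851 promoters of the same length, and no motif was in all 3 windows. A match describes the sequence and is not a measured site.

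The laminin-binding chains were low. Itga7, the laminin receptor chain of muscle fibres and satellite cells, was at 3.21, 2.40 and 9.99 CPM in circulating and 6.99, 8.89 and 17.8 CPM in muscle libraries (-1.11 ± 0.75, edgeR adjusted p = 0.416), and Itga6 at 5.40 to 7.85 CPM in circulating and 7.41 to 14.1 CPM in muscle libraries. Itga3 was at 0.439 to 2.53 CPM in circulating and 1.31 to 4.27 CPM in muscle libraries. All 3 had a negative log2 fold change, and in each the groups overlapped. The 8 satellite cell markers summed to 66.8 to 137 CPM in circulating and 85.6 to 125 CPM in muscle libraries. Sdc4, the most abundant, was at 51.4, 46.7 and 69.5 CPM in circulating and 61.4, 55.0 and 76.2 CPM in muscle libraries. Of the 7 tested, 3 (Pax7, Calcr and Chodl) were higher and 1 (Des) lower without overlap, where 16.2% of all genes were higher and 11.4% lower. Of the tested silent genes, 36.5% were higher without overlap. Pax7 and Calcr were low, with means of 2.48 and 3.9 CPM in circulating and 0.913 and 1.68 CPM in muscle libraries. Myod1 had 4, 3 and 0 reads in circulating libraries and 0 in every muscle library. The part of these markers in the Itga7 value was not tested. Itga9, which binds tenascin-C and VCAM-1, was higher in level, at 15.7, 15.4 and 9.004 CPM in circulating and 58.3, 19.0 and 41.2 CPM in muscle libraries. Every circulating library was below every muscle library (-1.56 ± 0.65, edgeR adjusted p = 0.233; DESeq2 adjusted p = 0.0734). Itga4, a VCAM-1 and fibronectin receptor chain of leukocytes, was at 4.06 to 10.9 CPM in circulating and 4.55 to 13.6 CPM in muscle libraries (0.07 ± 0.70, edgeR adjusted p = 0.961).

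Integrin genes of leukocytes (5 alpha and 2 beta chains) had positive log2 fold changes, 7 of 7. Over all genes tested, 11037 of 20248 were positive. By level, 5351 of 6540 were positive under 2 CPM, 2678 of 3942 between 2 and 5 CPM and 1981 of 5030 between 5 and 20 CPM. The 5 alpha chains had a median of 1.12, beside 0.93 for the tested silent genes. Of the 7 leukocyte integrin genes, Itgb2 passed in DESeq2. Itgb2, the CD18 chain shared by LFA-1 and Mac-1, was at 11.8, 5.99 and 3.29 CPM in circulating libraries, against 0.717, 0.711 and 1.37 CPM in muscle libraries. These values rested on 161, 45 and 30 reads in circulating and 12, 14 and 28 reads in muscle libraries. Each circulating library lay above each muscle library, and the log2 fold change was 2.90 ± 0.68 (edgeR adjusted p = 0.127; DESeq2 adjusted p = 0.00348). Over the background of silent genes Itgb2 was at 2.54 to 8.12 in circulating and 0.819 to 2.08 in muscle libraries. In circulating replicate 3 its 2.54 lay under the 95% point of the silent genes there (2.69). Itgb2 also lay under this point in every muscle library.

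Of the alpha partners of Itgb2, Itgal, the LFA-1 chain, was at 5.33, 7.19 and 3.95 CPM in circulating and 2.81, 1.57 and 3.18 CPM in muscle libraries (1.12 ± 0.56, edgeR adjusted p = 0.298), without overlap. Over background it was at 1.42 to 2.07 in circulating and 0.843 to 2.25 in muscle libraries, which overlapped. Itgam, the Mac-1 chain, Itgax and Itgad were at 0.659 to 3.46 CPM in circulating and 0.391 to 2.64 CPM in muscle libraries, and at most 1.40 times background in circulating and 2.55 times in muscle libraries. Of the Itgam exon bases 68.7% also lie in exons of Gm49368 in GENCODE M21, so its level is uncertain. Itgae, the CD103 chain of intraepithelial lymphocytes, was at 5.55, 3.99 and 2.42 CPM in circulating and 0.418, 1.73 and 1.13 CPM in muscle libraries (1.86 ± 0.63, edgeR adjusted p = 0.190), or 1.24 to 2.55 times background in circulating and 0.345 to 1.33 times in muscle libraries. Its partner Itgb7 was at 2.70, 17.2 and 17.1 CPM in circulating and 0.478, 8.33 and 7.48 CPM in muscle libraries (1.18 ± 1.01, edgeR adjusted p = 0.512), or 2.06 to 14.6 times background in circulating and 0.651 to 12.5 times in muscle libraries. Replicate 1 was the low library in both groups.

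The sums of leukocyte markers were higher in each circulating library than in any muscle library, as Itgb2 was. The 10 pan-leukocyte markers, with Ptprc (CD45) among them, summed to 168, 148 and 47.4 CPM in circulating libraries and to 10.6 to 17.5 CPM in muscle libraries. Of the 10, 6 were higher in every circulating library than in any muscle library, and none was at 0 in all libraries. Of the 7 that were tested, 5 were higher without overlap, beside 16.2% of all genes tested and 36.5% of the tested silent genes. Laptm5, the most abundant of them, was at 107, 29.3 and 7.80 CPM in circulating and 0.609 to 1.03 CPM in muscle libraries. Monocyte and macrophage markers (10 genes) summed to 49.0, 257 and 46.8 CPM in circulating and 14.1 to 27.1 CPM in muscle libraries. Neutrophil markers (8 genes) summed to 82.6, 16.6 and 71.9 CPM in circulating and 7.05 to 11.7 CPM in muscle libraries. Most of this sum was S100a9 in circulating replicate 1 (69.8 CPM) and S100a8 in circulating replicate 3 (61.4 CPM). Of the 6 neutrophil markers tested, 2 were higher without overlap. Lymphocyte markers (9 genes) reached 13.4, 20 and 19.3 CPM in circulating and 8.18 to 11.5 CPM in muscle libraries. The 7 lymphocyte markers tested had a median log2 fold change of 0.85, beside 0.93 for the tested silent genes. Of these leukocyte sums, only the pan-leukocyte sum fell in the replicate order of Itgb2 across the circulating libraries. The platelet sum fell in that order as well (33.4, 18.6 and 12.8 CPM). The part of leukocyte or platelet transcripts in the values of Itgb2 and its partners was not tested.

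The immunoglobulin-type and selectin-system genes overlapped between the groups throughout. Icam1, the inducible ligand of LFA-1, was at 2.34, 16.9 and 3.08 CPM in circulating and 19.7, 6.80 and 22.8 CPM in muscle libraries (-1.15 ± 0.89, edgeR adjusted p = 0.469). Pecam1, of endothelium and platelets, was at 2.99, 6.92 and 9.33 CPM in circulating and 4.72, 15.0 and 20.7 CPM in muscle libraries (-1.07 ± 0.76, edgeR adjusted p = 0.431). Icam2 had 6 to 16 reads in circulating and 0 to 40 reads in muscle libraries; its 0 in muscle replicate 3 allows a level of up to 0.147 CPM (3 reads, counting error only). Of the endothelial selectins, Selp lay at 1.65 to 3.21 CPM in circulating and 1.08 to 2.93 CPM in muscle libraries, and Sele at 1.33 to 4.60 CPM in circulating and 0.597 to 1.63 CPM in muscle libraries.

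Selplg, the selectin ligand PSGL-1 of leukocytes, was decided by 1 library. It was at 1.97, 26.8 and 1.87 CPM in circulating and 2.63, 3.45 and 5.48 CPM in muscle libraries. The log2 fold change of 1.39 ± 1.01 (edgeR adjusted p = 0.441) became -1.09 without circulating replicate 2. In the same library the complement gene C1qb, a macrophage marker, was at 92.9 CPM, against 0.730 and 1.10 CPM in the other 2 circulating libraries and 0.0978 to 1.08 CPM in muscle libraries. The macrophage markers' part in the Selplg value was not tested. The 12 endothelial markers summed to 82.4 to 142 CPM in circulating and 123 to 156 CPM in muscle libraries. Schwann cell markers (8 genes) summed to 14.9 to 48.4 CPM in circulating and 30.8 to 78.1 CPM in muscle libraries. Erythroid markers (7 genes) summed to 131 to 302 CPM in circulating and 73.2 to 373 CPM in muscle libraries.

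Cdh11 had the largest fold change and the smallest p of the 36 genes. It was at 7.08, 3.19 and 5.49 CPM in circulating libraries (97, 24 and 50 reads), against 107.8, 29.7 and 48.0 CPM in muscle libraries (1805, 584 and 982 reads). Each circulating library lay well below each muscle library, with means of 5.25 ± 1.95 CPM in circulating libraries and 61.8 ± 40.9 CPM in muscle libraries (SD, n = 3). The log2 fold change was -3.55 ± 0.73 (edgeR adjusted p = 0.0931). It passed in DESeq2 (-3.67, adjusted p = 1.91e-05) and in edgeR without the filter on low counts (-3.78, adjusted p = 0.0340), and its edgeR adjusted p was 0.0882 with scaling on abundant genes. Over the background of silent genes Cdh11 was at 1.68, 0.678 and 1.45 in circulating libraries and at 45.7, 11.7 and 25.0 in muscle libraries, so in circulating libraries its reads per kilobase were at most 1.68 times the median of silent genes. Of the 12 FAP markers, 8 had every circulating library below every muscle library and 1 had every circulating library above. Without overlap, 11.4% of all genes were lower and 16.2% higher. These markers are abundant, and of 2017 genes with a mean of at least 50 CPM, 718 were lower and 30 higher without overlap. Among the 12, 1 passed in edgeR (Smoc2, named after its values were seen and lost in 5 of the 6 fits without 1 library). In DESeq2 6 were lower and 1 higher. The median log2 fold change of the 12 was -1.29, or -0.58 with scaling on abundant genes. For all genes from 50 CPM upwards these medians were -0.68 and 0.02. The marker that went the other way was Dpp4, at 176.8, 180.5 and 69.1 CPM in circulating and 28.9, 37.0 and 23.0 CPM in muscle libraries (2.26, edgeR adjusted p = 0.127), and Pi16 also had a positive value (1.47, edgeR adjusted p = 0.1797). The part of the FAP markers in the values of Cdh11, Itgav, Itga8 and Itga10 was not tested.

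The other 3 cadherins had positive log2 fold changes. Cdh2, the N-cadherin of mesenchymal and neural cells, was at 4.82, 6.12 and 5.93 CPM in circulating and 2.03, 3.86 and 1.81 CPM in muscle libraries, without overlap (1.13 ± 0.56, edgeR adjusted p = 0.294). Over background Cdh2 was at 1.26 to 1.73 in circulating and 0.951 to 1.68 in muscle libraries. Cdh13, the lipid-anchored T-cadherin that binds adiponectin, was at 12.5, 52.2 and 16.8 CPM in circulating and 12.1, 9.55 and 17.99 CPM in muscle libraries (1.04 ± 0.73, edgeR adjusted p = 0.429). Circulating replicate 2 was the high one, and the log2 fold change was 0.06 without it. Cdh5, the endothelial VE-cadherin, was at 1.33 to 5.60 CPM in circulating and 0.597 to 5.13 CPM in muscle libraries (0.07 ± 0.81, edgeR adjusted p = 0.967).

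**Figure D3:**
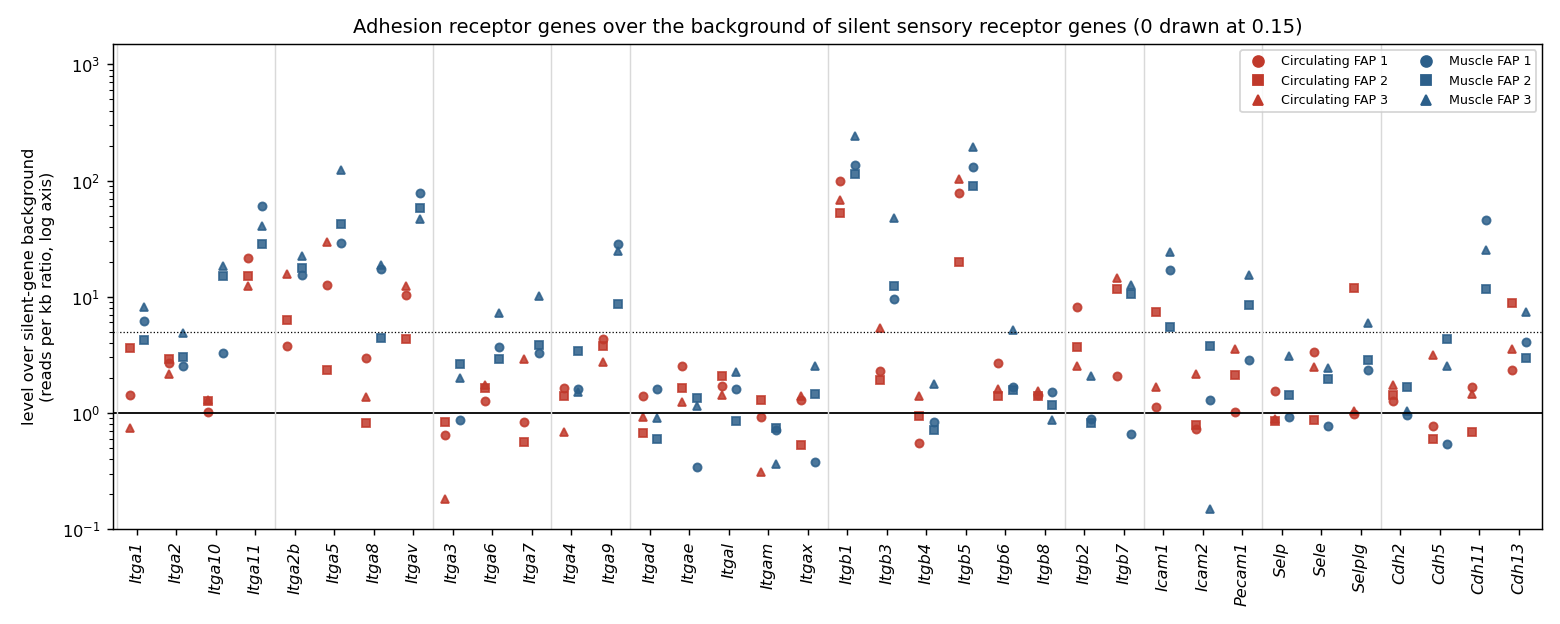
Reads per kilobase of exon of each gene divided by the median over silent sensory receptor genes in the same library, on a log axis, circulating libraries in red left of muscle libraries in blue. The solid line is the background and the dotted line 5 times the background; Cdh11 lies at 0.678 to 1.68 in circulating and 11.7 to 45.7 in muscle libraries.

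The genes were also set against the spread of the silent genes. With the 95% point of the silent genes in each library as the limit, 6 of the 36 genes were above it in every circulating library (Itga2b, Itga9, Itga11, Itgav, Itgb1 and Itgb5) and 16 in every muscle library. Beside those 6, the 16 were Itga1, Itga5, Itga6, Itga7, Itga8, Itga10, Itgb3, Icam1, Cdh11 and Cdh13. At or below it in every library of the group were 14 genes in circulating and 8 in muscle FAPs, and for Itgad, Itgal, Itgam, Itgb4, Itgb8 and Cdh2 this held in all libraries. Itga6, Itga10 and Cdh11 were at or below it in every circulating library and above it in every muscle library. The part of the higher background in the positive fold changes of low genes was not tested.

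**Figure D4:**
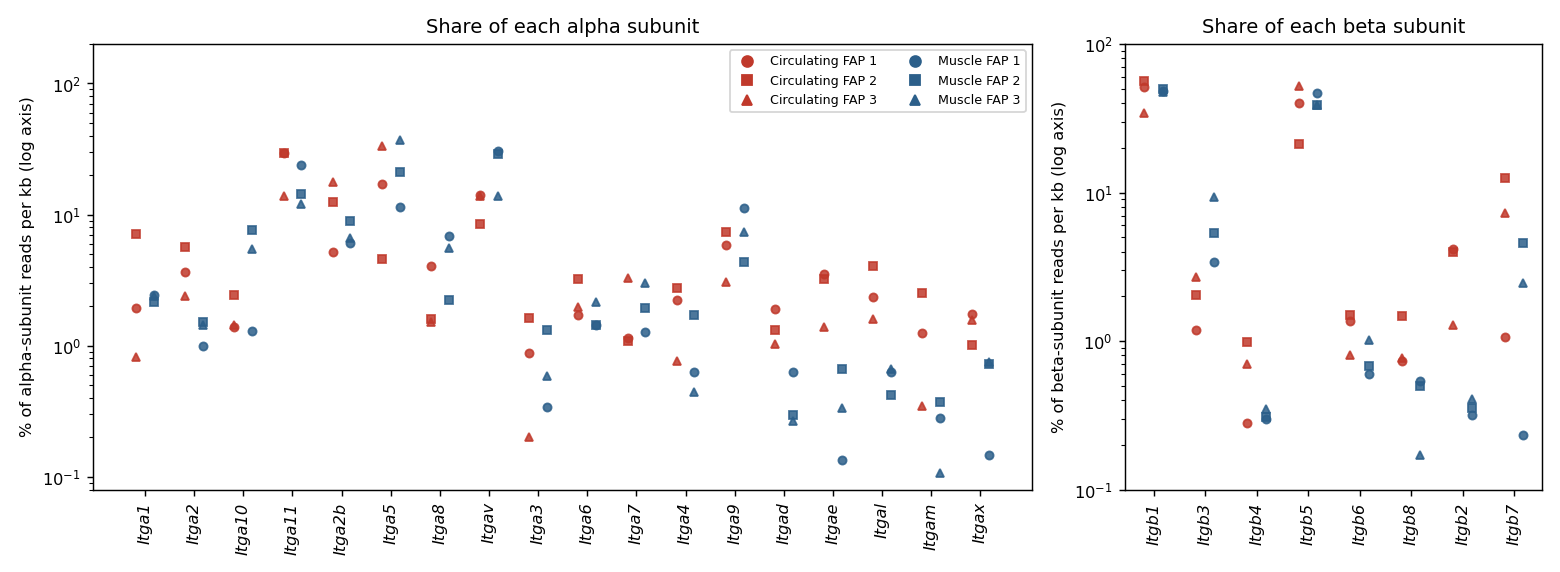
Percent of all alpha-chain (left) or beta-chain (right) reads per kilobase taken by each chain in each library, on log axes, circulating libraries in red left of muscle libraries in blue. Itgb3 took 1.18% to 2.69% of beta-chain reads in circulating and 3.40% to 9.37% in muscle libraries, and Itgb2 took 1.28% to 4.17% in circulating and 0.317% to 0.410% in muscle libraries.

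Shares of reads per kilobase within the alpha or the beta chains do not depend on how libraries are scaled. Itgb1 took 51.4%, 56.4% and 34.4% of beta-chain reads in circulating and 48.1%, 49.4% and 47.6% in muscle libraries. Itgb1 and Itgb5 together took 91.2%, 77.5% and 86.4% in circulating and 94.6%, 88.2% and 86.2% in muscle libraries, which overlapped. The share of Itgb3 was lower in each circulating library, at 1.97% ± 0.756 in circulating against 6.04% ± 3.04 in muscle FAPs (SD, n = 3). That of Itgb2 was higher in each, at 3.13% ± 1.61 in circulating against 0.360% ± 0.0470 in muscle FAPs. Itgav took 14.2%, 8.42% and 13.8% of alpha-chain reads in circulating and 30.4%, 28.8% and 13.9% in muscle libraries, so muscle replicate 3 was level with the circulating libraries. There Itga5 took the largest share, at 36.8%. The 5 leukocyte alpha chains together took 10.8%, 12.1% and 5.92% in circulating and 1.82%, 2.48% and 2.14% in muscle libraries, in a range where their own reads were near background. The 4 collagen-binding chains took 36.7%, 44.7% and 18.5% in circulating and 28.6%, 25.6% and 21.3% in muscle libraries.

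Genes that act with these receptors were also examined by list. Beside the counts that follow, 9.64% of all genes were lower and 9.71% higher at an unadjusted p under 0.05, and 7.08% were lower and 1.34% higher in DESeq2. Of 30 tested integrin activators and focal adhesion adaptors none passed in edgeR. At an unadjusted p under 0.05, 4 were lower and 1 higher, and 2 were lower in DESeq2. The list had 22 negative log2 fold changes and a median of -0.75, or 0.01 when scaled on abundant genes. Over all genes, 3049 of 5030 were negative between 5 and 20 CPM (median -0.34). Between 20 and 50 CPM 1998 of 2719 were negative (median -0.61), and from 50 CPM upwards 1711 of 2017 (median -0.68). Rap1b, a small GTPase that activates integrins and the most abundant of the list, was at 232, 208 and 176 CPM in circulating and 271, 303 and 468 CPM in muscle libraries (-0.76, edgeR adjusted p = 0.273). Of 12 kinases downstream of integrins none passed in edgeR and 2 were lower at an unadjusted p under 0.05 and in DESeq2, and the median was -0.28, which scaling on abundant genes turned to 0.50. Rock2, a kinase of actomyosin tension, was at 111, 171 and 95.9 CPM in circulating and 355, 336 and 382 CPM in muscle libraries, without overlap (-1.51, edgeR adjusted p = 0.131). Of 36 tested ligands 1 passed and was lower, Thbs1, at 56.8, 104 and 55.7 CPM in circulating and 463, 473 and 493 CPM in muscle libraries (-2.72, edgeR adjusted p = 0.0349), and the median of the list was 0.03, or 0.73 by that scaling. Thbs1 encodes thrombospondin-1, a matrix protein that integrins and other receptors bind. The Thbs1 call held without circulating replicate 1 (edgeR adjusted p = 0.036) and was lost without circulating replicate 2 or 3 (0.0775 and 0.144) or muscle replicate 1, 2 or 3 (0.172, 0.15 and 0.202), while the log2 fold change stayed between -3.17 and -2.64. It was also lost with scaling on abundant genes (-1.97, edgeR adjusted p = 0.0882), upper quartile scaling (-2.01, 0.0854), library size only (-2.47, 0.0666) and the replicate block (-2.79, 0.0801), and its adjusted p over all alternatives ran from 4.08e-06 to 0.202. The ligand list also had 6 genes lower and 3 higher at an unadjusted p under 0.05, and held 5 lower genes and 1 higher in DESeq2. Of 31 other adhesion receptors none passed in edgeR, 5 were lower at an unadjusted p under 0.05 and 3 in DESeq2, with a median of -0.35, turned to 0.38 by that scaling. The tetraspanin Cd9, an integrin partner in the membrane and the most abundant of these, was at 306, 299 and 197 CPM in circulating and 628, 561 and 764 CPM in muscle libraries (-1.28, edgeR adjusted p = 0.143).

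Of 14 other classical cadherins none passed in edgeR, 1 was lower and 3 were higher at an unadjusted p under 0.05, and 1 was lower in DESeq2. Of the 14, 13 had positive log2 fold changes, with a median of 0.85, or 1.55 by that scaling. Positive values were found in 2678 of 3942 genes between 2 and 5 CPM and 1981 of 5030 between 5 and 20 CPM. The median was 0.56 between 2 and 5 CPM, -0.34 between 5 and 20 CPM and 0.93 for the tested silent genes. The most abundant of these cadherins, Cdh6, was at 6.28, 7.05 and 21.7 CPM in circulating and 1.20, 3.76 and 3.08 CPM in muscle libraries (2.12, edgeR adjusted p = 0.201). Of 7 catenins, which link cadherins to actin, none passed in edgeR and 1 was lower at an unadjusted p under 0.05 and in DESeq2, with a median of 0.10, or 0.83 by that scaling. The most abundant catenin was Ctnna1, at 86.0, 18.9 and 28.2 CPM in circulating and 67.6, 105 and 104 CPM in muscle libraries (-1.05, edgeR adjusted p = 0.359).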

How the data were processed

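RNA-seq was made from total RNA of FAPs, 3 libraries from peripheral blood and 3 from muscle; per the labels' protocols, the extraction used RLT plus buffer and the library kit was TruePrep. The authors deposited raw counts of reads per gene symbol; Trim Galore, STAR, featureCounts and build GRCm39 are named, with no versions, per the submitters' processing notes. Annotation and strand setting are not given in the sources used here. Exons of 11 of the 36 genes overlap those of another gene in GENCODE M21. Without strand, reads from such overlaps cannot be told apart. For genes on the same strand, as Itgam with Gm49368 and Itga10 with Gm42957, strand would not separate them either. The 18S rows Rn18s and Rn18s-rs5 were kept in the totals.

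The counts were tested with the quasi-likelihood test of edgeR 4.0.16 in R 4.3.3 (robust fit, trimmed mean of M values scaling, default filterByExpr), fitted on all 20248 genes that passed, with Benjamini-Hochberg adjustment over all of them and a threshold of 0.05. Fold changes are log2, circulating minus muscle, with SE. DESeq2 1.42.0 was an alternative. The fit was tested on simulated data. Exon lengths came from GENCODE M21 (GRCm38), by symbol; the background is the median over 387 sensory receptor genes with a length. Libraries of one group differed far beyond sampling noise (chi-square per degree of freedom 67.8 to 104). The labels do not say that they came from separate animals, so each p-value reflects library-to-library spread, which may be technical. Groups share replicate numbers, but deviations of same-numbered libraries correlated at 0.006 to 0.041, so no pairing was used.

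The 36 genes and the 18 pathway and marker lists were chosen with earlier results of these data known. Values in every library are given for genes past the threshold, averaging 20 CPM or more in a group, or without overlap at 5 CPM or more; from each pathway list, genes past the threshold or else the most abundant. Other values by library were chosen after they were seen.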

Additional observations from a re-analysis of the deposited data

How the results depend on the processing

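No member passed in edgeR under RLE, TMMwsp, upper quartile or library-size scaling, scaling on abundant genes, the stricter filter, without 18S, without the robust option, or with any 1 library left out (0 to 0 lower and 0 to 0 higher). Without the filter on low counts 1 member was lower (Cdh11), with DESeq2 4 were lower and 1 higher, and with DESeq2 on all genes, an alternative chosen after seeing the data, 6 were lower and 1 higher. Over all genes the count of 21 lower became 42 with RLE, 1 with upper quartile, 4 with scaling on abundant genes, 154 without the filter, 1078 with DESeq2 and 1387 with DESeq2 on all genes, and ran from 0 (without muscle replicate 3) to 63 (without circulating replicate 1) with 1 library left out, and was 1 without any of the other 4. The count of 1 higher became 2 with library size only, 3 with scaling on abundant genes, 6 without the filter, 204 with DESeq2 and 156 with DESeq2 on all genes, and ran from 0 to 2 with 1 library left out. With the replicate number as a block, 1 gene was lower and 0 higher and no member passed; of the 3 circulating libraries, 1 (replicate 2) correlated best with the muscle library of its own number. The cause of these differences was not tested.

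The median over all genes shifted by 0.70 under scaling on abundant genes, by 0.67 under upper quartile scaling and by 0.15 with library size only. Signs of members that did not pass turned in these settings. Under scaling on abundant genes, log2 fold changes were 0.155 for Itga1, 0.231 for Itga11, 0.499 for Itga2b, 0.161 for Itga6, 0.494 for Itgb1 and 0.521 for Itgb5, and with upper quartile scaling 0.092, 0.186, 0.471, 0.129, 0.481 and 0.513 for the same genes in that order. With the stricter filter Itgb1 was at 0.008 and Itgb5 at 0.048. Itga4 was at -0.028 with DESeq2, -0.093 with DESeq2 on all genes, -0.028 with RLE and -0.151 without the filter. Cdh5 was at -0.065 with DESeq2 on all genes, -0.002 with RLE, -0.014 with library size only and -0.130 without the filter. With 1 library left out, the values ran from -0.958 to 0.050 for Itga2b, -0.265 to 0.625 for Itga4, -0.154 to 0.633 for Selp, -0.655 to 0.157 for Itgb5, -1.093 to 1.818 for Selplg, -1.003 to 0.891 for Cdh5, -0.410 to 1.654 for Icam2 and -0.007 to 0.898 for Itgax. Depth limits genes with few reads: the 5 leukocyte alpha chains had 76 reads or fewer in every library.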
